A study of Mus musculus with 2 samples.

Results

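The genes described here are 37 complement components, regulators and receptors, of 22322 genes in the deposited table. They were chosen as a list of gene symbols and found in the table by Ensembl gene ID. The rule uses no measured value, but the list was drawn up with earlier results of these data known. All 37 were in the table. For the comparisons, each gene was placed by general knowledge of where it is made. There were 9 genes made by macrophages, 10 made by hepatocytes and 13 made by hepatocytes and by other cells as well. The other 5 are surface proteins grouped as broad. The grouping is coarse, and a group name does not say that no other cell makes a gene. Cd46 and Cd93 are among the 5 and Cfd among the 13, although testis, endothelium and adipocytes are named for them below.

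Complement is a cascade of plasma proteases and binding proteins. The classical pathway starts when C1q binds antibody or dying cells, the lectin pathway starts when mannose-binding lectins or ficolins bind sugars, and the alternative pathway amplifies deposited C3b through factor B. All 3 pathways cleave C3, after which C5 to C9 can assemble the membrane attack complex, and soluble and membrane regulators hold the cascade back. Most circulating complement is made by hepatocytes, whereas C1q and properdin come largely from myeloid cells. Kupffer cells, the resident macrophages of the liver sinusoids, carry the receptor VSIG4, which captures C3b-coated particles from the blood.

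The libraries were mRNA sequencing of liver macrophages from WT mice (1 library) and from FABP7 KO mice (1 library), in which Fabp7, the gene of a fatty acid binding protein, is deleted in every cell of the body. The labels give the strain background of both as C57BL/6, and the study's methods give C57BL/6 J for the KO mice and male mice of 6 to 8 weeks. Mice of both genotypes received 500000 MC38 cells, a mouse colon carcinoma line, in 100 µl by injection into the spleen, and macrophages were taken on day 10 from livers with metastases by F4/80 positive selection. How many mice were pooled for a library is not stated in the labels or methods, and 1 label field calls the KO sample a knockdown, where its title and the study's methods call it a knockout. With 1 library per genotype there is no replicate check of any difference below, and no p-value or SE is given.

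Values are FPKM, fragments per kilobase of transcript scaled to the mapped fragments of the library, so levels of different genes can be compared per length. A level given for WT or KO macrophages is that of the whole library, which also held marker transcripts of other cell types. The depth came to about 18110000 fragments in WT and 17970000 in KO, read off the spacing of low values of short genes. Intervals below are exact 95% intervals (Clopper-Pearson) of a ratio from the fragments estimated behind both values, and they cover counting error only, since PCR reads without molecular identifiers are not independent molecules and differences between mice are not in them. The labels were checked by Fabp7 itself (ENSMUSG00000019874), which fell from 354 to 0.69 FPKM, with a log2 ratio of -7.71. The defining markers of macrophages were present in both libraries, with the lowest of 8 pan-macrophage markers at 99.9 and 120 FPKM, and the Kupffer cell gene Clec4f at 3188 and 4156 FPKM.

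Complement transcripts as a group stood higher in the KO library. Of the 37 genes, 32 reached 1 FPKM in at least 1 library, of which 5 did so in the KO library alone and 1 in the WT library alone, and 28 of these 32 had a KO to WT ratio above 1, where 50.3% of all 10770 genes measured at that floor did. Their median log2 ratio, computed on FPKM + 1, was 0.52, beside 0.004 over all measured genes. Without a floor the median over all 37 was 0.44. A gene was called when it differed at least 2-fold on that scale, a log2 ratio of 1, which 5.16% of all measured genes did (2.21% higher and 2.95% lower). By this rule 4 complement genes rose (C1s1, C5ar2, C8b and C3ar1) and 0 fell, or 12.5% of the 32. Just inside the rule stood C3ar1, with a log2 ratio of 1.02, and just outside it Fcna, at 0.99, and Cd55, at 0.92. The rule is strict for rare transcripts, because adding 1 FPKM shrinks their ratios, and with 0.1 FPKM added instead 7 genes were called, the further 3 being C9, C8a and C4bp. With 1 FPKM added and the values as deposited, no complement gene reached a log2 ratio of 1.5, while with 0.1 FPKM added C1s1 and C8b did, at 1.98 and 1.95.

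**Figure D1:**
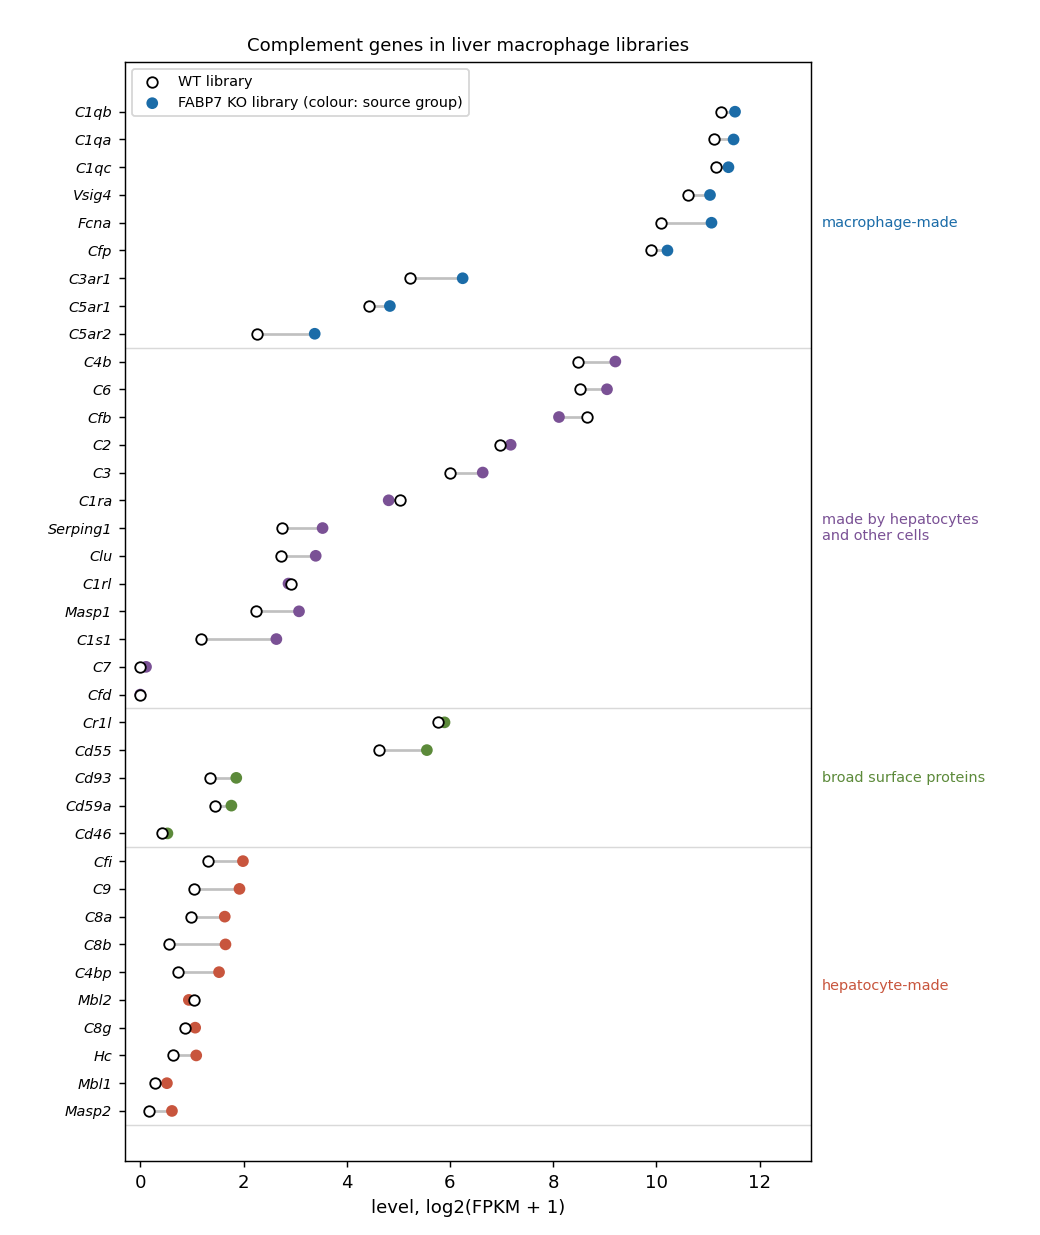
Level of each complement gene as log2(FPKM + 1) in the WT library (open circles) and the FABP7 KO library (filled circles, coloured by where the gene is known to be made). The macrophage-made genes span the range from C1qb, at 2422 and 2944 FPKM, down to C5ar2, at 3.80 and 9.41 FPKM, and all 10 hepatocyte-made genes lie below 3 FPKM in both libraries.

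Most of the complement transcript belonged to the macrophage-made genes. These 9 genes (C1qa, C1qb, C1qc, Fcna, Cfp, C3ar1, C5ar1, C5ar2 and Vsig4) summed to 10576 FPKM in WT macrophages and 14075 FPKM in KO macrophages, 87.9% and 88.5% of the summed level of all 37 complement genes. All 9 had ratios above 1, with log2 ratios from 0.25 to 1.12 and a median of 0.40, and 2 of them (C3ar1 and C5ar2) rose. None of their 9 counting intervals held a ratio of 1.

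The 10 hepatocyte-made genes (Mbl1, Mbl2, Masp2, Hc, C8a, C8b, C8g, C9, C4bp and Cfi) were at trace levels. Each stood between 0.12 and 1.49 FPKM in the WT library and between 0.43 and 2.97 FPKM in the KO library, and together they summed to 7.45 and 15.98 FPKM, a 2.14-fold difference. Over all 10 without a floor the median log2 ratio was 0.55. Of the 8 that passed the floor, with a median of 0.66, 5 (Hc, C8a, C8b, C8g and C4bp) reached it in the KO library alone, where they stood higher, so that the floor itself favours high ratios among them. Only C8b, which is among those 5, was called, and the counting intervals of 7 of the 10 lay above a ratio of 1 while 3 held it. Over all listed genes the median of the hepatocyte-made genes was 0.15 above that of the macrophage-made genes on the log2 scale, a difference that 1 library per genotype does not allow to be tested. It was 0.26 over the genes that passed the floor and 0.57 over them with a pseudocount of 0.1 FPKM.

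The 13 genes made by hepatocytes and by other cells divided by level. Of these, 6 (C1ra, C2, C4b, C3, C6 and Cfb) stood at 20 FPKM or more in both libraries, summing to 1345 FPKM in WT macrophages and 1661 FPKM in KO macrophages, and had a median log2 ratio of 0.36. The other 7 summed to 22.8 and 39.2 FPKM, and the 5 of them above the floor had a median of 0.79 (0.67 over all 7 without a floor). In bulk libraries, more cells of a type and more RNA per cell cannot be told apart.

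Hepatocyte markers stood higher in the KO library as well. Of 27 hepatocyte markers, 26 passed the floor, 24 had ratios above 1 and 5 rose, with a median log2 ratio of 0.79. Their summed level was 698 FPKM in the WT library and 1353 FPKM in the KO library. None of the 27 was at 0, and albumin (Alb) stood at 144 and 305 FPKM and transferrin (Trf) at 306 and 642 FPKM. Trf was thus above albumin in both libraries and was the largest single part of the summed level. Which cells its transcript came from was not tested. Set against albumin, C8a was at a ratio of 0.00680 in the WT library and 0.00693 in the KO library, and C9 at 0.00728 and 0.00916. The hepatocyte-made genes were not alike in this. Albumin had a KO to WT ratio of 2.11, and theirs ran from 0.868 (Mbl2) through 1.33 (C8g) to 4.46 (C8b). Of the abundant genes made by hepatocytes and other cells, C6 was at 2.55 and 1.73 times the albumin level, C4b at 2.47 and 1.93 times, and C3 at 0.437 and 0.323 times. Their KO to WT ratios (1.43, 1.66 and 1.56) were under that of albumin but inside the range of the hepatocyte markers. That range ran from 0.874 (Tat) to 3.06 (Cyp3a11). C2, at 1.15, lay inside it as well, and C1ra (0.856) and Cfb (0.685) lay below it. What part hepatocyte RNA has in the values of the hepatocyte-made genes, or of those made by hepatocytes and other cells, was not tested.

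**Figure D2:**
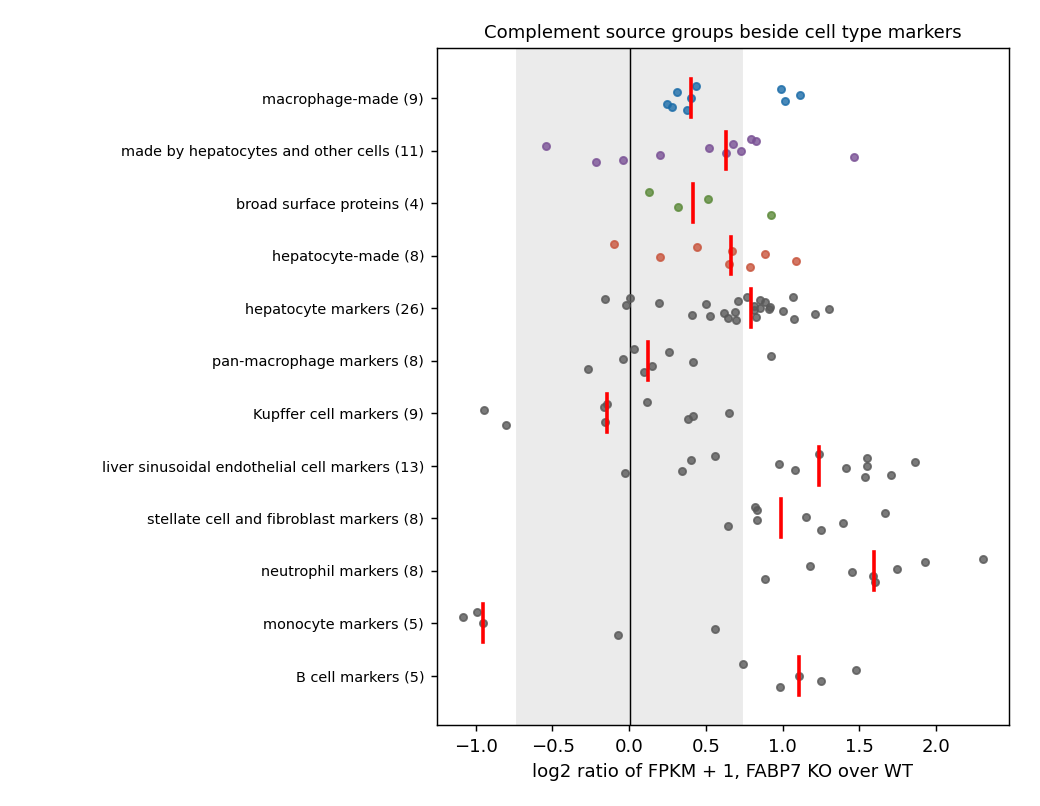
Log2 ratios of FPKM + 1, KO over WT, for the complement genes by where they are made (coloured points) and for cell type markers (grey points). Numbers in brackets are the genes above 1 FPKM in at least 1 library, red bars mark medians and the grey band spans the 5th to 95th percentile of all measured genes, from -0.73 to 0.73. The macrophage-made genes have their median at 0.40, between the pan-macrophage markers at 0.12 and the hepatocyte-made genes at 0.66 (0.55 over all 10), and the hepatocyte markers have theirs at 0.79.

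The DNA before the start of these genes was read as a description of how the macrophage-made and hepatocyte-made genes differ in sequence. RefSeq promoter windows (mouse build GRCm38.p6) were at hand for 28 of the 37 genes, in 31 windows, of which the 250 bases before each start were searched on both strands. The genes with no window were C1qa, C2, C4b, Cd93, Cfb, Cfi, Clu, Masp1 and Serping1. The letters GAGGAA, the core bound by the myeloid factor PU.1, were in 23.3% of all 32851 windows. They were in 5 of 9 windows of macrophage-made genes, with none for C3ar1, C5ar1 and Cfp, and in 0 of 10 windows of hepatocyte-made genes. Genes made by hepatocytes and other cells had them in 0 of 8 windows as well, and broad surface proteins in 1 of 4. The letters GTTAAT, a half-site of the hepatocyte factor HNF1, were in 6.43% of all windows. They were in 1 of 9 windows of macrophage-made genes (Cfp) and in 4 of 10 windows of hepatocyte-made genes (Hc, C8a, C8b and C4bp). Genes made by hepatocytes and other cells had them in 2 of 8 windows (C1ra and C7), and broad surface proteins in 0 of 4. No printed window held both motifs, and a match is a run of letters and no measured binding. To let the letters be seen, sequences are given for 3 macrophage-made genes of high level with the PU.1 letters and both hepatocyte-made C8 chain genes with the HNF1 letters, each 5′ to 3′ on the strand of its gene and ending before the start (for Fcna, before the earliest GENCODE start, which shortens it to 194 bases), with the motif letters in capitals.
C1qb (chr4:136886201-136886450, minus strand): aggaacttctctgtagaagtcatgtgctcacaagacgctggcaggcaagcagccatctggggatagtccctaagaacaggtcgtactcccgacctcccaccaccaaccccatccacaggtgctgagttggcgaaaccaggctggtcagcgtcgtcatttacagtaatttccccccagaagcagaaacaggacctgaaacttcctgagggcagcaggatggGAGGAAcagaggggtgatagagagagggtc
Fcna (chr2:25628031-25628224, minus strand): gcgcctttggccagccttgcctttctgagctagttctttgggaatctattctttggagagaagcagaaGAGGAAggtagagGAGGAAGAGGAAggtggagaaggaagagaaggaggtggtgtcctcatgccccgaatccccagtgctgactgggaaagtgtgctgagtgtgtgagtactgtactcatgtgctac
Vsig4 (chrX:96293439-96293688, minus strand): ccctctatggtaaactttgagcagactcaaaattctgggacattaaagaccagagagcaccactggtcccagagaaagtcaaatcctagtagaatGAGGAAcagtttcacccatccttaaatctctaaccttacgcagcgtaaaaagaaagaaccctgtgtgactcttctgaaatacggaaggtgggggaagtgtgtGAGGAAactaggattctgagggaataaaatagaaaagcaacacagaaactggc
C8a (chr4:104876399-104876648, minus strand): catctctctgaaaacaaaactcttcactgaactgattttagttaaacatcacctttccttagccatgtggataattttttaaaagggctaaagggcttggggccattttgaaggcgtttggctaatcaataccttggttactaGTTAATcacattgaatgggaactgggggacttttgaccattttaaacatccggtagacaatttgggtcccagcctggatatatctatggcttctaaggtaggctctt
C8b (chr4:104766067-104766316, plus strand): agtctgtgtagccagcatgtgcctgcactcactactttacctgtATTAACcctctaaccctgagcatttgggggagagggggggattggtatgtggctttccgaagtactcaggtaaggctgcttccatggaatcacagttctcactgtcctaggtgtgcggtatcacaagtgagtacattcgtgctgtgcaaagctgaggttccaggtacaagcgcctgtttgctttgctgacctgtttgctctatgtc
In the C1qb window the PU.1 letters began 30 bases before the start, in the Vsig4 window they occurred at 2 places and in the Fcna window at 3. The C8a window held the HNF1 letters 107 bases before the start, and the C8b window held them 206 bases before it, on the other strand and so printed in reverse complement.

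The classical pathway was led by C1q, whose 3 chains were among the most abundant transcripts of both libraries. C1qb (ENSMUSG00000036905) was at 2422 FPKM in WT macrophages and 2944 FPKM in KO macrophages, rank 17 and rank 15 of all measured genes. C1qa (ENSMUSG00000036887) was at 2224 and 2887 FPKM, and C1qc (ENSMUSG00000036896) at 2273 and 2695 FPKM. The chains, which join in equal numbers in the C1q molecule, stayed close to each other, with C1qa to C1qb at 0.918 in WT and 0.981 in KO macrophages and C1qc to C1qb at 0.939 and 0.915. All 3 were higher in the KO library by less than the size rule, 1.30-fold for C1qa (1.28 to 1.32), 1.22-fold for C1qb and 1.19-fold for C1qc.

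The proteases that C1q carries differed in direction. C1s1, the serine protease that cleaves C4 and C2, stood at 1.25 FPKM in WT macrophages and 5.22 FPKM in KO macrophages and rose 4.18-fold (3.17 to 5.51, about 67 and 276 fragments), a log2 ratio of 1.47 and the highest among the complement genes that passed the floor. C1ra, which activates C1s, was at 31.7 and 27.1 FPKM, a ratio of 0.856 (0.797 to 0.918) that did not pass the rule. C1rl, a C1r-like protease, was at 6.53 and 6.32 FPKM, and its interval (0.832 to 1.13) held a ratio of 1. C1rb and C1s2, near copies of C1ra and C1s1, were listed at 0 in both libraries. The labels and methods do not say how reads shared by such copies were counted.

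C4 and C2 form the classical C3 convertase. C4b (ENSMUSG00000073418) was at 356 FPKM in WT macrophages and 589 FPKM in KO macrophages, 1.66-fold higher (1.63 to 1.68), and moved from rank 189 to rank 79. Its near copy C4a was looked up by symbol and was not found among the deposited values. C2 was at 125 and 144 FPKM, 1.15-fold higher (1.11 to 1.19). Neither passed the size rule, and over the 8 classical pathway genes the median log2 ratio was 0.26, with 1 rising.

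Of the lectin pathway genes, Fcna carried nearly all of the transcript. Fcna (ENSMUSG00000026938), the gene of ficolin A, a soluble sugar-binding protein that liver macrophages make, stood at 1081 FPKM in WT macrophages and 2146 FPKM in KO macrophages. The ratio was 1.98 (1.96 to 2.01), it moved from rank 44 to rank 23, and its log2 ratio of 0.99 was just short of the rule. Against Adgre1, the gene of F4/80 (864 and 925 FPKM), Fcna went from 1.25 to 2.32 times. The gain depends on the gene set against Fcna. Adgre1 was 1.07-fold higher in the KO library, Csf1r 1.34-fold and Clec4f 1.30-fold, and Cd5l had a ratio of 0.896. After scaling the KO library so that genes at 10 FPKM or more had a median ratio of 1, or so that totals without hepatocyte markers and mitochondrially encoded genes were equal, Fcna passed the rule at 1.03 and 1.04. With the KO library scaled by the pan-macrophage markers, the log2 ratio of Fcna was 0.87, short of the rule.

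The other lectin pathway genes were low. Masp1, a protease bound to lectins and ficolins, was at 3.76 FPKM in WT macrophages and 7.43 FPKM in KO macrophages, 1.98-fold higher (1.74 to 2.25) with a log2 ratio of 0.82. Masp2, the protease that cleaves C4 and C2 in this pathway, was at 0.12 and 0.53 FPKM, under the floor, from about 7 and 29 fragments. The mannose-binding lectin genes were near or under the floor, Mbl1 at 0.22 and 0.43 FPKM and Mbl2 at 1.06 and 0.92 FPKM. The intervals of both lectins held a ratio of 1, so a difference was not detectable for them at this depth.

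In the alternative pathway, factor B stood lower in the KO library. Cfb (ENSMUSG00000090231), the gene of factor B, which supplies the protease of the alternative C3 convertase, was at 403 FPKM in WT macrophages and 276 FPKM in KO macrophages. It was 1.46-fold higher in the WT library, a KO to WT ratio of 0.685 (0.670 to 0.700) and a log2 ratio of -0.54, the lowest among the complement genes. Cfb and its neighbour in the genome C2, which codes for the matching protease of the classical pathway, moved apart, and the ratio of Cfb to C2 was 3.22 in WT and 1.92 in KO macrophages. Cfp, the gene of properdin, which stabilises the alternative convertase, was at 957 and 1187 FPKM, 1.24-fold higher (1.22 to 1.26). Cfd, the gene of factor D, which adipocytes make, was listed at 0 in both libraries, where a count of 0 allows up to 0.180 FPKM in WT macrophages and 0.181 FPKM in KO macrophages. The adipocyte gene Adipoq was listed at 0 in both libraries too.

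C3, the component on which all 3 pathways meet, was at 63.0 FPKM in WT macrophages and 98.4 FPKM in KO macrophages, 1.56-fold higher (1.51 to 1.61) with a log2 ratio of 0.63. Its level was thus under that of C4b and of Cfb in both libraries.

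The terminal components were present at very unequal levels. C6 (ENSMUSG00000022181), which joins C5b in the membrane attack complex, was at 367 FPKM in WT macrophages and 527 FPKM in KO macrophages, 1.43-fold higher (1.41 to 1.46). C6 alone thus made up nearly all of the 371 and 536 FPKM that the 7 terminal genes summed to. C7, which joins next, was listed at 0 in the WT library, where a count of 0 allows up to 0.0619 FPKM, and was at 0.08 FPKM in the KO library from about 4 fragments.

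Of the C8 chains, C8b rose. C8b (ENSMUSG00000029656) was at 0.48 FPKM in WT macrophages and 2.14 FPKM in KO macrophages, a ratio of 4.46 (2.75 to 7.94) from about 19 and 86 fragments, with a log2 ratio of 1.09. C8a was at 0.98 and 2.11 FPKM, 2.15-fold higher (1.59 to 2.95) with a log2 ratio of 0.65. C8g, the third chain, was at 0.82 and 1.09 FPKM, and its interval (0.697 to 2.72) held a ratio of 1. The other terminal genes were low too. C9, which forms the pore, was at 1.05 and 2.79 FPKM, 2.66-fold higher (1.82 to 3.95), and Hc, the gene of C5, was at 0.56 and 1.12 FPKM, 2-fold higher (1.45 to 2.84). Neither C9 nor Hc passed the rule on FPKM + 1, with log2 ratios of 0.89 and 0.44.

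**Figure D3:**
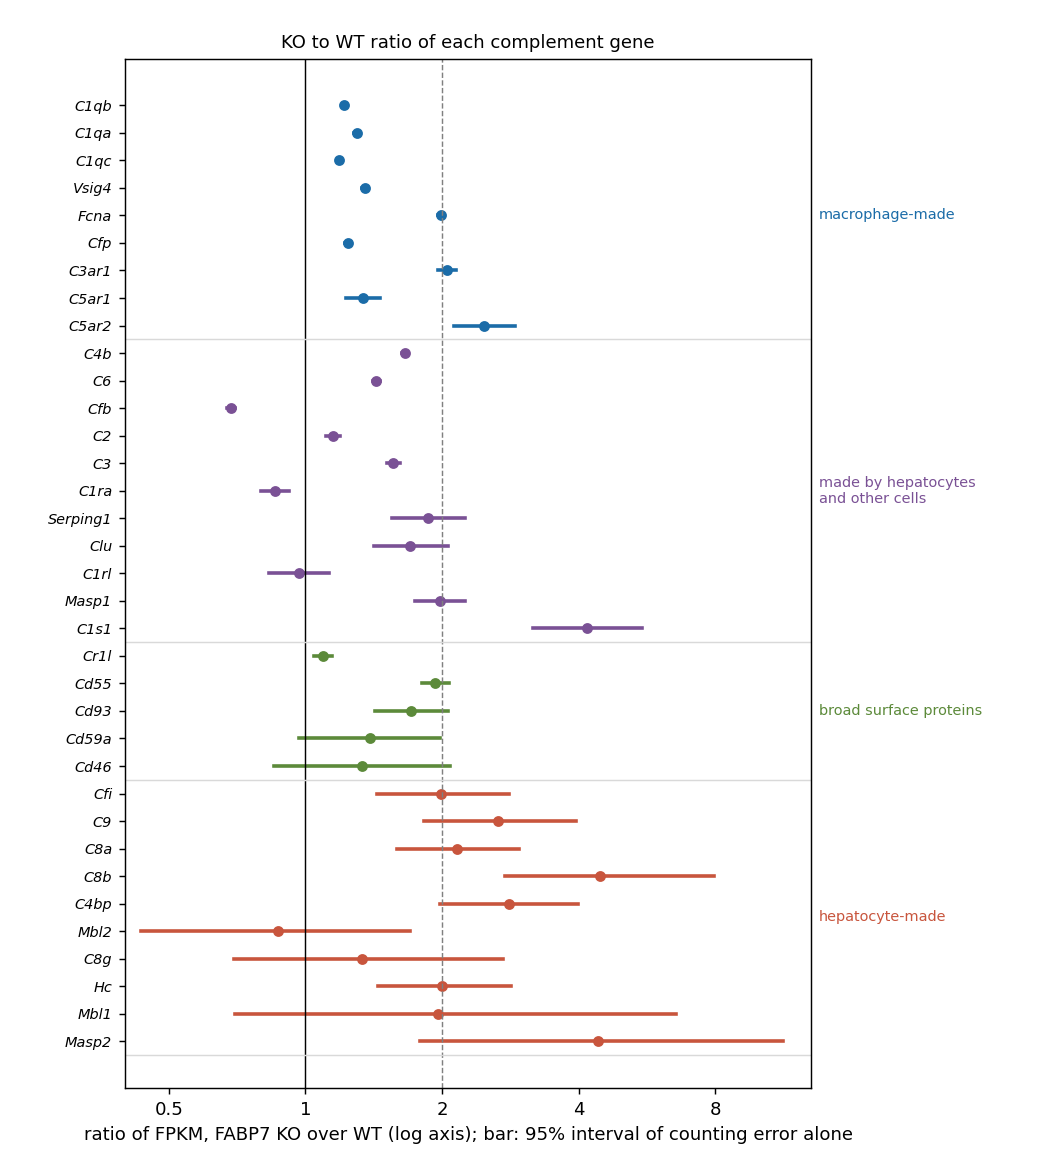
Ratio of FPKM, KO over WT, for each complement gene with a value above 0 in both libraries (log axis), with the exact 95% interval of counting error as a bar. The solid line marks a ratio of 1 and the dashed line a ratio of 2. The bars of abundant genes such as Cfb (0.670 to 0.700) are hidden by or little wider than their points, and those of Mbl1, Masp2 and Mbl2 are the widest.

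The 4 soluble regulators stood higher in the KO library, without any passing the rule. Serping1, the gene of C1 inhibitor, which blocks C1r, C1s and the lectin pathway proteases, was at 5.68 FPKM in WT macrophages and 10.6 FPKM in KO macrophages, 1.86-fold higher (1.55 to 2.24). Clu, the gene of clusterin, which keeps terminal complexes out of membranes, was at 5.61 and 9.55 FPKM, 1.70-fold higher (1.41 to 2.06). C4bp, whose product binds C4b and helps to degrade it, was at 0.67 and 1.88 FPKM, 2.81-fold higher (1.98 to 3.98). Cfi, the gene of factor I, the protease that cleaves C3b and C4b, was at 1.49 and 2.97 FPKM, 1.99-fold higher (1.44 to 2.81). Their log2 ratios lay between 0.67 and 0.79.

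The membrane regulators differed from each other in level and in ratio. Cd55, decay-accelerating factor, was at 23.8 FPKM in WT macrophages and 46.0 FPKM in KO macrophages, 1.93-fold higher (1.81 to 2.07) with a log2 ratio of 0.92. Cr1l, the gene of Crry, the main C3 convertase regulator of mouse cells, was at 53.5 and 58.5 FPKM, 1.09-fold higher (1.05 to 1.14). Cd59a, which blocks C9 polymerisation, was at 1.73 and 2.40 FPKM with an interval (0.968 to 1.98) that held a ratio of 1. Cd46, which in mice is expressed mainly in the testis, was at 0.33 and 0.44 FPKM, under the floor, with an interval (0.852 to 2.08) that held 1 as well. Both Cd59a and its near copy Cd59b (0.38 and 0.64 FPKM) were low.

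Of the receptors for complement fragments, those for C3a and C5a held both genes that rose. The anaphylatoxin receptor C3ar1 (ENSMUSG00000040552), which binds C3a, was at 36.5 FPKM in WT macrophages and 74.9 FPKM in KO macrophages and rose 2.05-fold (1.96 to 2.15), a log2 ratio of 1.02. C5ar2 (ENSMUSG00000074361), the second receptor for C5a, was at 3.80 and 9.41 FPKM and rose 2.48-fold (2.13 to 2.89), a log2 ratio of 1.12. C5ar1, the main C5a receptor, was at 20.6 and 27.6 FPKM, 1.34-fold higher (1.23 to 1.46), and did not pass the rule. The ratio of C3ar1 to C5ar1 was 1.77 in WT and 2.72 in KO macrophages. With the KO library scaled so that the median ratio of the pan-macrophage markers was 1, the log2 ratio of C3ar1 was 0.90, short of the rule. Of the neutrophil markers that passed the floor, 7 of 8 rose in the KO library. What part neutrophils or other cells have in the receptor values was not tested.

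Vsig4 (ENSMUSG00000044206), the Kupffer cell receptor for C3b and iC3b, was at 1558 FPKM in WT macrophages and 2103 FPKM in KO macrophages, rank 33 and rank 25. It was 1.35-fold higher (1.33 to 1.37), with a log2 ratio of 0.43, and went from 1.80 to 2.27 times the level of Adgre1. Such a comparison depends on the gene set against it. Adgre1 was 1.07-fold higher in the KO library, whereas Csf1r was 1.34-fold and Clec4f 1.30-fold higher, close to Vsig4, and Cd5l had a ratio of 0.896. Cd93, once described as a C1q receptor and strongly expressed on endothelium, was at 1.54 and 2.63 FPKM, 1.71-fold higher (1.42 to 2.06), with a log2 ratio of 0.52. Over the 5 receptors the median log2 ratio was 0.52.

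The 9 Kupffer cell markers, measured in the same libraries, had a median log2 ratio of -0.14 and 0 of the 9 were called. Of these, 4 stood higher in the KO library (Clec4f, Folr2, Id3 and Timd4) and 5 lower, among them Cd5l at 6696 and 6001 FPKM and Marco at 1377 and 714 FPKM. For the 8 pan-macrophage markers the median was 0.12 and 0 were called, but their summed level was 6215 FPKM in WT macrophages and 8366 FPKM in KO macrophages, 1.35-fold higher. Most of that lay in Csf1r, at 2372 and 3173 FPKM, and Lyz2, at 1387 and 2631 FPKM, and the other 6 summed to 2456 and 2563 FPKM, 1.04-fold higher. Of the 8, Aif1 and Fcgr1 stood lower in the KO library. The summed level of the macrophage-made complement genes was 1.33-fold higher. Markers of other cells moved too. Of liver sinusoidal endothelial markers 8 of 13 rose (summed level 189 and 323 FPKM), of stellate cell and fibroblast markers 4 of 8 that passed the floor rose (70.9 and 172 FPKM), of neutrophil markers 7 of 8 (40.3 and 116 FPKM) and of B cell markers 3 of 5 (17.1 and 44.2 FPKM). None of these markers was at 0 in either library. The monocyte markers had a median of -0.07 over all 7 without a floor and of -0.96 over the 5 that passed, and 1 of them fell, Plac8, from 908 to 427 FPKM. What part these cells have in the complement values was not tested.

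Beyond the 37 genes, 30 further genes of the complement system were listed, of which 28 were in the table and 17 passed the floor. Of these 17, 2 rose and 0 fell, and the median log2 ratio was 0.47. Both that rose were collectins, soluble lectins that start the lectin pathway: Colec10 stood at 3.88 FPKM in WT macrophages and 12.3 FPKM in KO macrophages (log2 ratio 1.45), and Colec11 at 3.81 and 10.3 FPKM (1.23). Abundant ones were Calr, the gene of calreticulin, which binds C1q, at 552 and 442 FPKM; Itgb2, the shared chain of complement receptors 3 and 4, at 253 and 256 FPKM; and Lrp1, a receptor for calreticulin, at 196 and 242 FPKM.

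**Figure D4:**
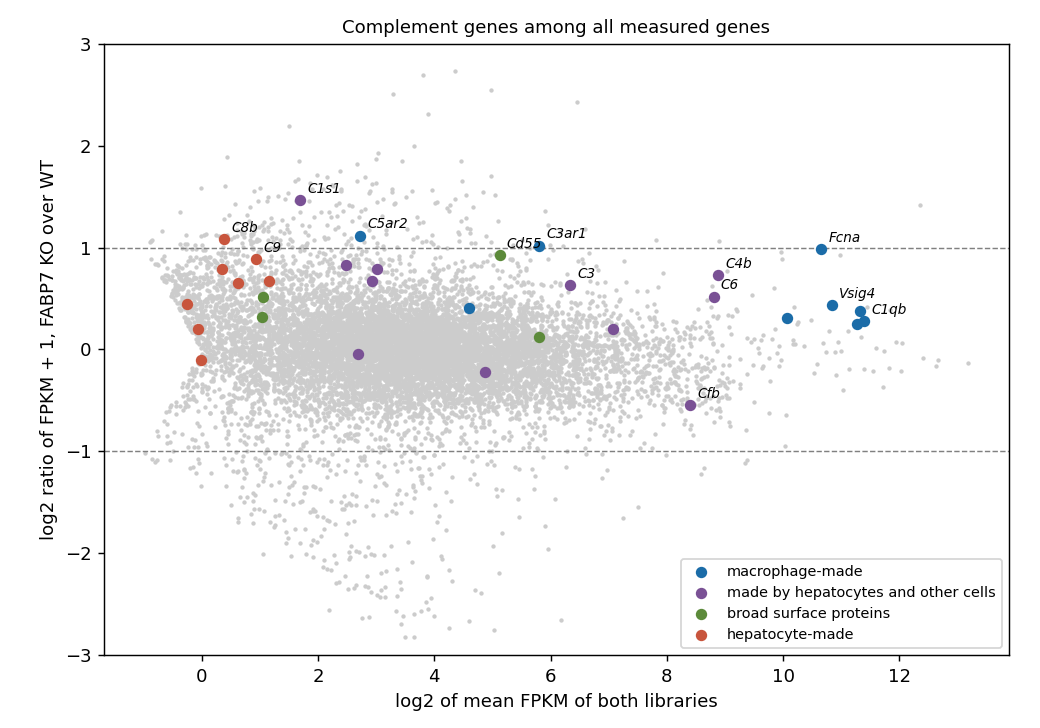
Log2 ratio of FPKM + 1, KO over WT, against log2 of the mean FPKM of both libraries, for all 10770 measured genes (grey) and the complement genes above the floor (coloured by where they are made). The dashed lines mark the size rule. Fcna, at 0.99, lies on the upper line among the most abundant genes and Cfb, at -0.54, is the lowest complement gene, while 2 genes above and 3 below the ends of the axis, Fabp7 among them, are not drawn.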

How the data were processed

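Liver macrophage mRNA of 1 WT and 1 FABP7 KO library was analysed. The authors deposited FPKM values with 2 decimals, and per the labels Bowtie2 2.2.8 and TopHat2 2.1.1 were among the tools, with the genome build, annotation and counting tool not given in the sources used here. Symbols were matched by Ensembl gene ID to GENCODE (22267 of 22322 IDs). Log2 ratios, KO over WT, were computed on FPKM + 1 over genes that reached 1 FPKM in either library, and a gene was called at an absolute log2 ratio of 1. Without replicate libraries no test was run, and an alternative was compared by sign and by side of that rule.

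Depth was estimated from low values times the length of the longest GENCODE transcript, of which 89.1% (WT) and 89.3% (KO) lay within 0.15 of a whole fragment. Evenly spread values would give 30% at a depth fixed beforehand. The depth was chosen to bring these same values near whole fragments, so the share describes the fit and is not a test of it. The steps were tested on simulated data. All 37 genes are named, with the further complement genes that passed the rule or had the 4 highest means, and up to 3 abundant genes of a marker list. The values of 1 further gene are not reported here. The members, lists, rule for naming genes and motifs were chosen with earlier results of these data known. Alternatives were other scalings of the KO library, pseudocounts, floors and a stricter size rule. Python 3.11.15, NumPy 2.4.6, pandas 2.3.3, SciPy 1.17.1 and Matplotlib 3.10.9 were used.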

Additional observations from a re-analysis of the deposited data

How the results depend on the processing

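No paired analysis was possible because there is 1 library per genotype. The number of complement genes called was 4, and it was 7 with a pseudocount of 0.1 FPKM (C4bp, C8a and C9 in addition) and 0 with a size rule of 1.5 on the values as reported, since a smaller pseudocount widens the ratios of rare genes and a stricter rule admits fewer. Over the other alternatives (3 scalings of the KO library, no floor and a floor of 5 FPKM) it was 3 to 5. The log2 ratio of C1rl turned from -0.04 to 0.0036 when totals without hepatocyte markers and mitochondrially encoded genes were set equal. The median of the macrophage-made genes ran from 0.29 to 0.45 and that of the hepatocyte-made genes from 0.55 to 0.99, and their difference from 0.15 to 0.57. Scaling by the pan-macrophage markers put the median log2 ratio of all measured genes at -0.11 (0.004 as reported), and only under it did a called gene, C3ar1, fall short of the unchanged size rule and floor. With a floor of 5 FPKM no hepatocyte-made gene was left, so that setting gives no median for them. Genes near 1 FPKM rest on few fragments at this depth, such as C9 with about 39 in the WT library, and differences between mice cannot be estimated for any gene.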
